A study of Mus musculus with 2 samples.

Results

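The genes described here are 43 genes of the cell division cycle and of DNA replication, measured in dissected mouse ureters on a whole-genome oligonucleotide array. They were chosen by gene name: every non-control probe carrying one of these gene names was taken, which gave 57 of the 39429 probes. By role, 10 genes belong to G1, 13 to S phase and 20 to G2 and mitosis (G2/M). A probe was kept where 1 of the groups, Tbx2-GOF or control, had it well above background on array 1 and array 2, leaving 55 probes of 41 genes, among 21098 genes tested in all. The other 2 genes were Ccne2, which encodes cyclin E2, and Aurkb, the kinase of the chromosomal passenger complex. Each had 1 probe that was not well above background in either group on either array.

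Ureters came from male embryos of the NMRI stock at E13.5. Tbx2-GOF embryos had the genotype Tbx18(cre/+);Hprt(Tbx2/Y), in which cre turns on extra Tbx2, the gene of a T-box repressor, and control embryos Tbx18(+/+);Hprt(Tbx2/Y). The Tbx2 allele at Hprt is thus shared by both groups, while cre at 1 Tbx18 allele is found in Tbx2-GOF embryos alone. Tbx18 is active in the mesenchyme around the ureteric epithelium. In which cells of the extract cre had acted was not measured. The series has 2 two-colour arrays, each with 1 Tbx2-GOF and 1 control extract and with the dyes exchanged between the arrays. The sources used here do not state how many ureters or embryos went into an extract, or whether the arrays hold separate extracts. With n = 2 the p-values reflect only the spread between these arrays, largely pooled over all genes, and it may be technical.

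Cells commit to division in G1, when D-type cyclins with CDK4 or CDK6 and then cyclin E with CDK2 release E2F transcription factors from the retinoblastoma proteins. E2F factors switch on the genes of DNA replication, and a later programme, bound through the cell cycle homology region (CHR), switches on the genes of mitosis. Transcripts of the later groups are abundant only in cycling cells, so their level in a tissue follows the share of cycling cells and the RNA per cell alike. These cannot be told apart in RNA from whole ureters. TBX2 is known from cultured cells as a repressor of the CDK inhibitor genes Cdkn1a and Cdkn2a.

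None of the 41 measured genes passed the test for a difference between Tbx2-GOF and control ureters, 0 upward and 0 downward. The test was limma's moderated test across all genes with Benjamini-Hochberg adjustment at 0.05, and it called 0.645% of all genes tested, 0.36% as higher and 0.284% as lower. At an unadjusted p under 0.05 it marked 1 of the 41, the cyclin D1 gene Ccnd1, where 9.34% of all genes were marked. On both arrays together, no member reached 1.5-fold in 1 direction, against 1.37% of all genes. On a single array Ccnd1 alone passed 1.5-fold, on array 2, where 5.83% of all genes did; on array 1 no member did, against 3.56% of all genes. The lowest adjusted p among the members was 0.422, that of Ccnd1, and 37 of the 41 were above 0.9.

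The intervals given here use limma's moderated variance and cover the spread between the 2 arrays only. That variance is drawn mostly from all genes, with 6.36 prior against 1 residual degrees of freedom. Half-widths thus ran from 0.30, also where the 2 values of a gene nearly coincided, to 0.46. Ratios are given as log2 of Tbx2-GOF over control, averaged over the 2 arrays, and levels are named as such. The ratios ran over the members between -0.27 for Nusap1, 1.20-fold lower in Tbx2-GOF, and 0.43 for Ccnd1, 1.35-fold higher. The 95% intervals of the means lay within 1.5-fold in either direction for 39 of the 41 genes, and within 2-fold for all 41. Ccnd1 and Cdk6 were the exceptions to the 1.5-fold bound, with upper limits of 0.82 and 0.67. The median over the members was -0.03 (array 1 -0.08, array 2 0.04), against -0.00051 over all genes tested. The spread between members was an SD of 0.14 on array 1 and 0.22 on array 2, against 0.27 and 0.32 for all genes.

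**Figure D1:**
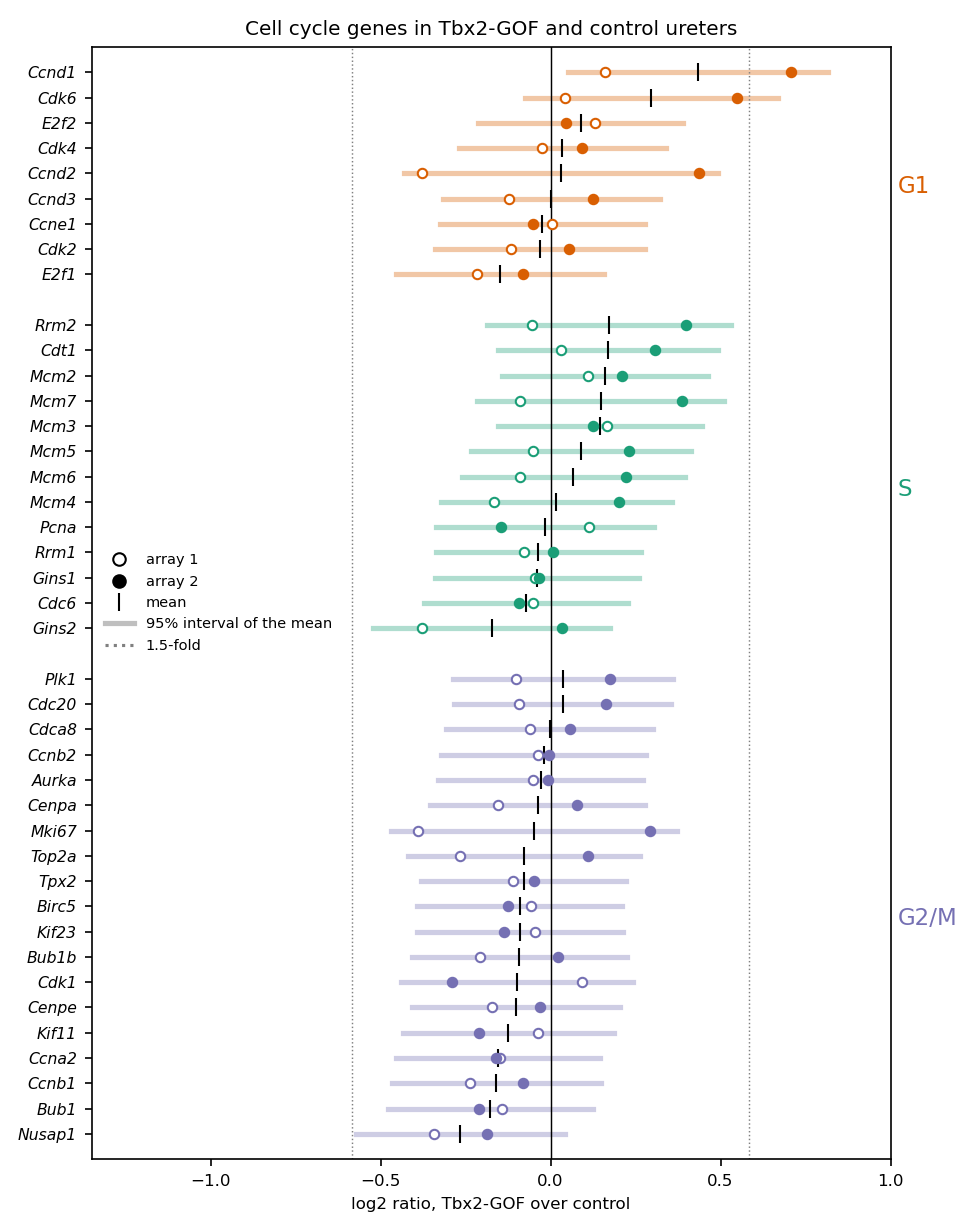
Log2 ratio of Tbx2-GOF over control for the 41 measured genes (x axis), grouped by phase and ordered by the mean; open points are array 1, filled points array 2, ticks the mean, and bands the 95% interval of the mean from limma. The dotted lines mark 1.5-fold, and the Ccnd1 point of array 2 is the only point beyond them.

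In G1 the leading gene was Ccnd1, which encodes cyclin D1, the mitogen-responsive partner of CDK4 and CDK6. Its level, as normalized log2 intensity, was 15.40 on array 1 and 15.36 on array 2 in Tbx2-GOF ureters, against 15.24 and 14.65 in control ureters. The Tbx2-GOF levels were the higher on both arrays, and the groups did not overlap, yet the control levels lay farther apart than the groups did on array 1. The ratio was 0.43 ± 0.39 (SD, n = 2; 0.16 on array 1 and 0.71 on array 2), with a 95% interval between 0.05 and 0.82 and an adjusted p of 0.422 by limma (1 probe, mm9 chr7:152116202-152116261). Cdk6, the gene of a kinase that cyclin D1 activates, had levels of 8.43 and 8.37 in Tbx2-GOF and of 8.39 and 7.82 in control ureters. Its groups overlapped, and its ratio was 0.30 ± 0.36, again almost all of it on array 2, with 0.04 and 0.55 on arrays 1 and 2 (adjusted p = 0.708 by limma; chr5:3522106-3522165). The Cdk6 probe was well above background in both groups but dim. Its ratio ran from 0.27 to 0.38 over the alternatives in processing.

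The other G1 genes lay closer to 0. E2f1, an activating E2F factor, had levels of 11.91 and 11.82 in Tbx2-GOF and 12.13 and 11.90 in control ureters, which overlapped. Its ratio was -0.22 on array 1 and -0.08 on array 2, a mean of -0.15 ± 0.10 (adjusted p = 0.937 by limma, n = 2; chr2:154385798-154385857), and that of its relative E2f2 was 0.13 and 0.04. Ccnd2, the gene of cyclin D2, was -0.38 on array 1 and 0.44 on array 2, the widest gap between the arrays among the members. Its mean of 0.03 therefore carries an SD of 0.58, and its interval between -0.43 and 0.49 was the widest too. Ccnd3 for cyclin D3 was at -0.12 and 0.13, the kinase gene Cdk4 at -0.02 and 0.09, and its S phase counterpart Cdk2 at -0.12 and 0.05. Ccne1, the gene of cyclin E1, had levels of 14.40 and 14.32 in Tbx2-GOF and 14.40 and 14.37 in control ureters (chr7:38882937-38882960), a ratio of -0.02 ± 0.04. Of the 9 measured G1 genes 3 were higher on both arrays (26.1% of all genes were), 1 was lower on both (25.1% of all genes) and 5 had opposite signs on the arrays.

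All 13 S phase genes were measured, and their median of 0.07 was made up of -0.05 on array 1 and 0.20 on array 2. The helicase that unwinds DNA at replication forks is built of MCM2 to MCM7, and its 6 genes had ratios between 0.02 and 0.16. On array 2 all 6 were higher in Tbx2-GOF, between 0.12 and 0.39, and on array 1 only Mcm2 and Mcm3 were; 50.5% of all genes were higher on array 2. Mcm2 had levels of 13.64 and 13.65 in Tbx2-GOF ureters, against 13.53 and 13.44 in control ureters. Those groups did not overlap, and the ratio of 0.16 ± 0.07 did not pass the test (adjusted p = 0.914 by limma, n = 2; chr6:88833619-88833678). Mcm3 stood at 13.16 and 13.07 in Tbx2-GOF and 13.00 and 12.94 in control ureters, a ratio of 0.15 ± 0.03 (adjusted p = 0.938; chr1:20793136-20793195).

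The factors that load and start the helicase showed no common direction. Cdt1, which brings the MCM ring to replication origins, had levels of 13.34 and 13.35 in Tbx2-GOF ureters, against 13.31 and 13.05 in control ureters. Its ratio was 0.17 ± 0.20 with an adjusted p of 0.919 by limma (n = 2; chr8:125096893-125096952). Its partner in loading, Cdc6, was at -0.05 and -0.09, and the GINS subunits Gins1 and Gins2 were at -0.04 and -0.17, Gins2 with -0.38 on array 1 and 0.03 on array 2. Of the subunits of ribonucleotide reductase, which makes deoxynucleotides, Rrm2 was at 0.17, with -0.06 and 0.40 on the 2 arrays, and Rrm1 at -0.04. Pcna, the gene of the sliding clamp of DNA polymerase and a common proliferation marker, had levels of 16.19 and 16.04 in Tbx2-GOF and 16.08 and 16.18 in control ureters. The groups overlapped, and its ratio of -0.02 ± 0.19 held -0.34 to 0.30 in its interval (chr2:132075022-132075054). The Pcna probe also lists predicted transcript records, as do tested probes of Mki67, Cdk4, Cdc20 and Ccnd3. Whether these records are similar copies elsewhere or forms of the same gene was not checked.

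The promoters of the phase groups differ in the motifs they hold. Promoter windows of RefSeq (GRCm38.p6), 250 bases before and 50 after the gene start, were found for 34 of the 43 genes, some with more than 1 start. The E2F motif, searched as TTTCGCGC, TTTGGCGC and TTTCCCGC on both strands, was in 6 of the 10 S phase genes (60.0%), 2 of 7 G1 genes and 1 of 17 G2/M genes, against 2.12% of the 27025 genes in the table. The CHR motif, TTTGAA on either strand, was in 12 of 17 G2/M genes (70.6%), 1 of 10 S phase genes and 1 of 7 G1 genes, against 20.2% of all. The CCAAT box, searched as CCAAT on both strands, was in 15 of 17 G2/M genes (88.2%), 8 of 10 S phase genes (80.0%) and 3 of 7 G1 genes (42.9%), against 41.1% of all. A T-box site, searched as AGGTGTGA, was in 1 of the 34, E2f2 at a second start site, against 1.48% of all. A match is a string of letters and not a site shown to be bound. The windows of Cdt1 and Mcm3, the E2F-bearing S phase genes among those described in full with the largest ratios, are shown 5′ to 3′ with the E2F motif in capitals.
Cdt1, chr8:122567765-122568064, + strand: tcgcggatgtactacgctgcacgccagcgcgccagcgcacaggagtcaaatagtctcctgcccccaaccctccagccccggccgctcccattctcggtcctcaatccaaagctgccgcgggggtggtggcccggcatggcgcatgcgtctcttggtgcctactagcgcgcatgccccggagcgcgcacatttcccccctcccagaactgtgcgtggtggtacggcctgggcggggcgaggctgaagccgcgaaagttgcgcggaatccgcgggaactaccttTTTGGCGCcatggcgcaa
Mcm3, chr1:20820263-20820562, - strand: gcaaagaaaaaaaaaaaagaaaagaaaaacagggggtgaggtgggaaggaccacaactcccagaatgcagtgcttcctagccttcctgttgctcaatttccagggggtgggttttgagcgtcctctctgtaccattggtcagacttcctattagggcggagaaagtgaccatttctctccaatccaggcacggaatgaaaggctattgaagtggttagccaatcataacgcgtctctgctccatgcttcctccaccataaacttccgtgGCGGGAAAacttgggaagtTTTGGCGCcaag

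Genes of G2 and mitosis lay slightly below 0. Their median was -0.09, with -0.11 on array 1 and -0.03 on array 2, close to the lower quartile of all genes tested, which was -0.09 as well. Of 19 measured genes 11 were lower in Tbx2-GOF on both arrays, where 25.1% of all genes were, none was higher on both, and 8 had opposite signs. This count takes the brightest probe of a gene, and for 2 of the 11, Ccnb1 and Birc5, other kept probes had opposite signs on the arrays. None passed the test in either direction, and none had an unadjusted p under 0.05. The median is -0.03 on array 2 alone, closer to 0 than on array 1.

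The farthest down was Nusap1, which encodes a microtubule-binding protein of the spindle. Its levels were 14.25 and 14.39 in Tbx2-GOF ureters, against 14.59 and 14.58 in control ureters. Both Tbx2-GOF levels were below both control levels, and the ratio was -0.27 ± 0.11 (n = 2) with an interval between -0.57 and 0.04 and an adjusted p of 0.655 by limma (chr2:119475072-119475131). Bub1, a kinase gene of the spindle checkpoint, stood at 13.15 and 13.13 in Tbx2-GOF and 13.29 and 13.34 in control ureters, a ratio of -0.18 ± 0.05 (adjusted p = 0.876; chr2:127626988-127627047). The Bub1 probe was printed 10 times on each array, and the spots gave -0.14 ± 0.07 on array 1 and -0.21 ± 0.07 on array 2 (SD over 10 spots). All 10 spots lay below 0 on each array, between -0.25 and -0.06 on array 1 and between -0.29 and -0.09 on array 2. Spots of 1 array share an extract, so they show the precision of the array and not that of the biology.

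Cyclins and kinases that drive mitosis were close to 0. Ccnb1, which encodes cyclin B1, had levels of 15.07 and 15.10 in Tbx2-GOF ureters, against 15.31 and 15.18 in control ureters, without overlap (ratio -0.16 ± 0.11, adjusted p = 0.919 by limma, n = 2; chr13:101548722-101548781). Ccna2, the gene of cyclin A2, which acts in S phase and G2, was at -0.15 and -0.16, and Ccnb2 for cyclin B2 at -0.04 and -0.0033. Cdk1, the mitotic kinase, had levels of 12.81 and 12.77 in Tbx2-GOF and 12.72 and 13.06 in control ureters. Its groups overlapped, and its ratio was -0.10 ± 0.27 (chr10:68801072-68801131). Plk1 and Aurka, kinases of spindle assembly, were at 0.04 and -0.03, and Cdc20, an activator of the anaphase-promoting complex, at 0.04.

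The proliferation markers Mki67 and Top2a had opposite signs on the 2 arrays. Mki67, the gene of the Ki-67 antigen, had levels of 15.43 and 15.32 in Tbx2-GOF ureters, against 15.82 and 15.03 in control ureters. It was lower in Tbx2-GOF on array 1 and higher on array 2, at -0.39 and 0.29, so its mean of -0.05 ± 0.48 has an interval between -0.47 and 0.37. Top2a, the gene of the topoisomerase that disentangles replicated DNA, had levels of 14.02 and 13.98 in Tbx2-GOF and 14.29 and 13.87 in control ureters, a ratio of -0.08 ± 0.27 (chr11:98855522-98855581). The remaining members act at kinetochores, on the spindle or in cytokinesis. Tpx2, Birc5, Kif11, Kif23, Bub1b, Cenpa, Cenpe and Cdca8 had ratios between -0.12 and -0.0022 with the tested probes. Kif11, a motor that separates spindle poles, was at -0.12, and Tpx2 was at -0.08 with the tested probe and -0.16 with the mean of its probes.

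The 2 G2/M genes shown next, Cdk1 and Top2a, are those described in full that carry the CHR motif and lie farthest from 0. The motif is in capitals, and each window holds 2 matches.
Cdk1, chr10:69352863-69353162, - strand: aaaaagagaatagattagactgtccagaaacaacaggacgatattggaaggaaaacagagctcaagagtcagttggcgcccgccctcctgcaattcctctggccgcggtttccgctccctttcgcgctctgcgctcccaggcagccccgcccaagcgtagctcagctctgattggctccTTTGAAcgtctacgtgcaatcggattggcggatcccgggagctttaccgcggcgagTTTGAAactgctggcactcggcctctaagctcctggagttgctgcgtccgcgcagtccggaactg
Top2a, chr11:99024140-99024439, - strand: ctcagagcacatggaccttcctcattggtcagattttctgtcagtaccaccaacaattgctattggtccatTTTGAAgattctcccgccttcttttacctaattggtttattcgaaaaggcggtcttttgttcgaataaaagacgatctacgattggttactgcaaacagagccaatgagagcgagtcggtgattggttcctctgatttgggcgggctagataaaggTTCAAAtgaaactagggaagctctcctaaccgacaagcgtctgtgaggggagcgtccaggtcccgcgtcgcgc

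**Figure D2:**
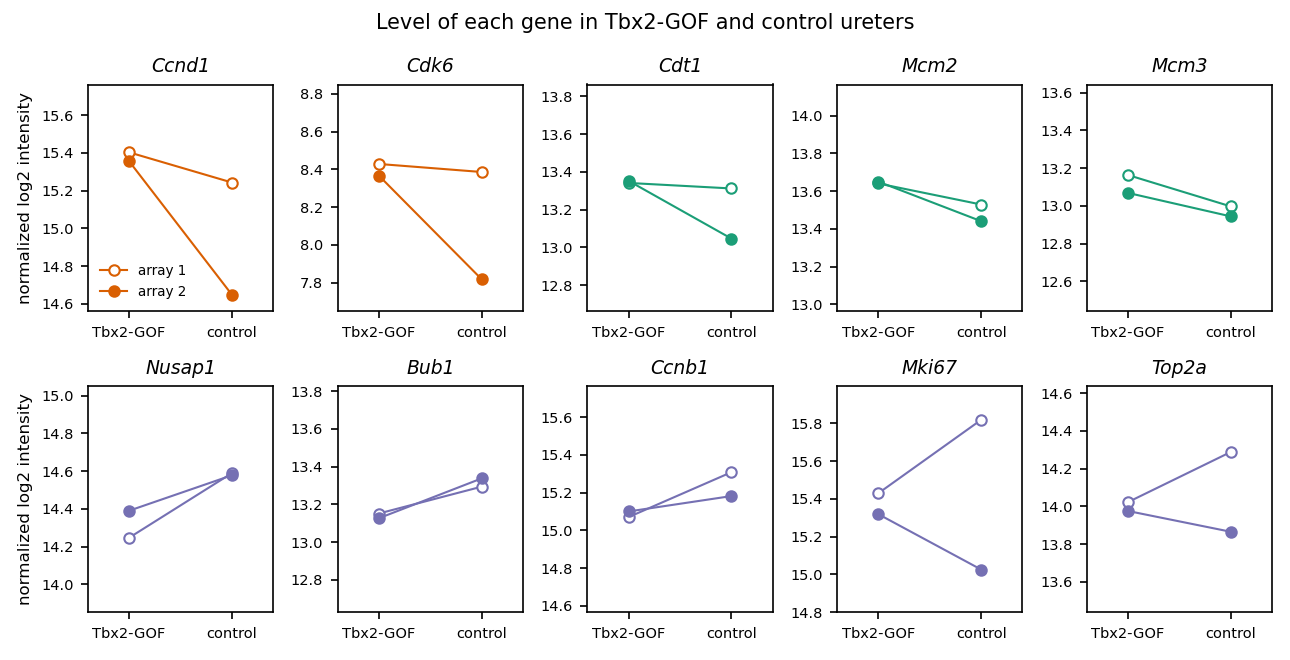
Normalized log2 intensity (y axis, each panel 1.2 units high) of 10 genes in Tbx2-GOF and control ureters; lines join the 2 channels of an array, open points array 1 and filled points array 2. Levels are comparable within a panel only; Ccnd1 and Mki67 have Tbx2-GOF points close together and control points far apart.

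Several kept probes were available for 10 genes, and they show how far probes differ within an array. The probes of Mki67 do not overlap, and they gave -0.43 and -0.39 on array 1 and 0.24 and 0.29 on array 2. The values differed by 0.04 and 0.05 between probes, and by far more between arrays. The Mki67 probes are listed 5′ to 3′ with their mm9 coordinates, to show that they are separate sequences.
Mki67 probe 1, chr7:142881591-142881650, - strand: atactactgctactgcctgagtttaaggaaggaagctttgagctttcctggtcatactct
Mki67 probe 2, chr7:142884764-142884823, - strand: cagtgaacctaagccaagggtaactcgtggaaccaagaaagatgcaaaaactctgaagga

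Probes of other genes lay farther apart. For Cdk4 the probes spread over 0.40 on array 1 and 0.37 on array 2, 1 probe giving -0.42 and 0.47 and the brightest -0.02 and 0.09, and yet the probe means lay between 0.02 and 0.04. The 3 probes of Ccnb1 all had a mean of -0.16, but 2 of them had opposite signs on the arrays, -0.38 and 0.06 for 1 and -0.48 and 0.16 for the other. Only the tested Ccnb1 probe was lower on both arrays and without overlap of the groups. The 3 probes of Birc5, the survivin gene, had means between -0.15 and -0.09, and 1 of them had opposite signs, -0.38 and 0.09. Tpx2, the gene of a spindle assembly factor, was at -0.08 with the tested probe and at -0.24 with its other probe, both lower on both arrays. Probe means of opposite sign were found in 3 of the 10 genes, Cdc6, Cdca8 and Cdk1. Cdc6 was at 0.17 with 1 probe and -0.07 with the brighter one that entered the test, Cdca8, a gene of the chromosomal passenger complex, at 0.06 and -0.0022, and Cdk1 at 0.01, -0.10 and -0.10. Probes 2 and 3 of Cdk1 share 41 bases, shown in capitals, and are not independent measurements. Probe 2 was not well above background in Tbx2-GOF ureters on array 1, and probe 3 was the brightest and entered the test. The 0.01 came from probe 1, which was dim. Its levels were 7.65 and 7.55 in Tbx2-GOF and 7.64 and 7.54 in control ureters. The probes of Cdc6 and Cdk1 are shown because their signs differ (mm9, 5′ to 3′).
Cdc6 probe 1, chr11:98785169-98785228, + strand: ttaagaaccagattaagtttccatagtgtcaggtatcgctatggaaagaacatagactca
Cdc6 probe 2, chr11:98782986-98783045, + strand: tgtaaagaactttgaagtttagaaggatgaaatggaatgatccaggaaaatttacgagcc
Cdk1 probe 1, chr10:68799513-68799572, - strand: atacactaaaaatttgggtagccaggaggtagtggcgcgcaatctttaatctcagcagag
Cdk1 probe 2, chr10:68801053-68801112, - strand: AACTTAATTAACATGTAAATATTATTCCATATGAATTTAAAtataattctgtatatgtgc
Cdk1 probe 3, chr10:68801072-68801131, - strand: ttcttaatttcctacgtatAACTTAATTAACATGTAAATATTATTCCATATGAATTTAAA

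**Figure D3:**
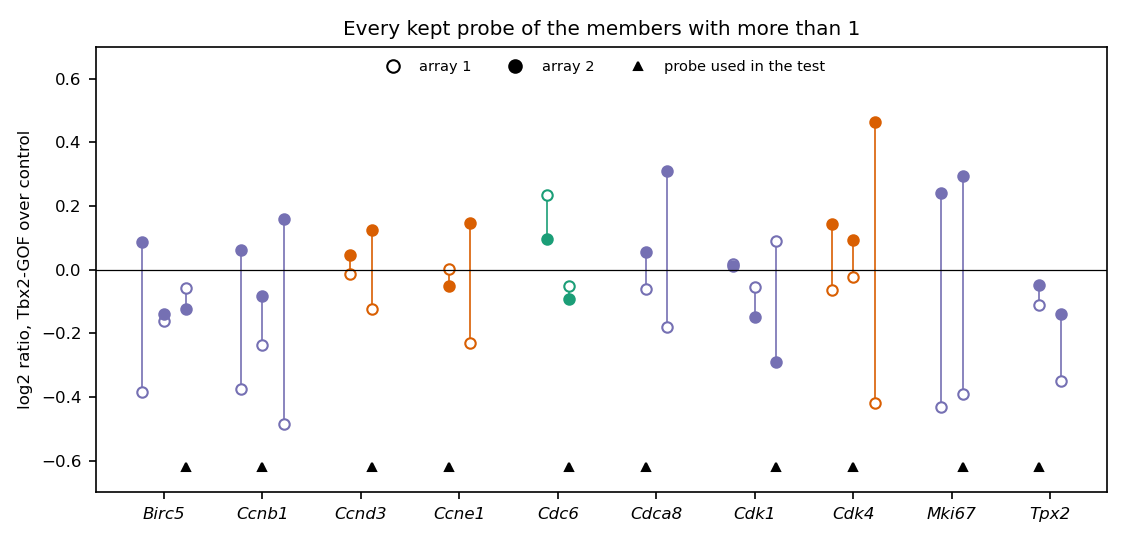
Log2 ratio of Tbx2-GOF over control (y axis) for every kept probe of the 10 genes with more than 1; each line is 1 probe with array 1 open and array 2 filled, and triangles mark the probe that entered the test. The Mki67 probes lie close together within each array, while those of Cdk4 do not.

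In the separate channels the gap between arrays lay mostly on the control side. The 2 Tbx2-GOF levels of a member differed by a median of 0.08 log2 units, and the 2 control levels by 0.16. The control gap was the larger in 30 of the 41 genes (73.2%), which is close to the 69.4% of all genes tested. As for its direction, 33 of the 41 members had a higher control level on array 1 than on array 2 (80.5%), against 51.6% of all genes. Dye, array and extract cannot be told apart in this design. Signs were the same on both arrays in 20 of the 41 members (48.8%), against 51.2% of all genes, and the array values correlated over the 41 genes with r = 0.09, against 0.31 over all genes; genes of 1 array share its extracts and are not replicates.

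**Figure D4:**
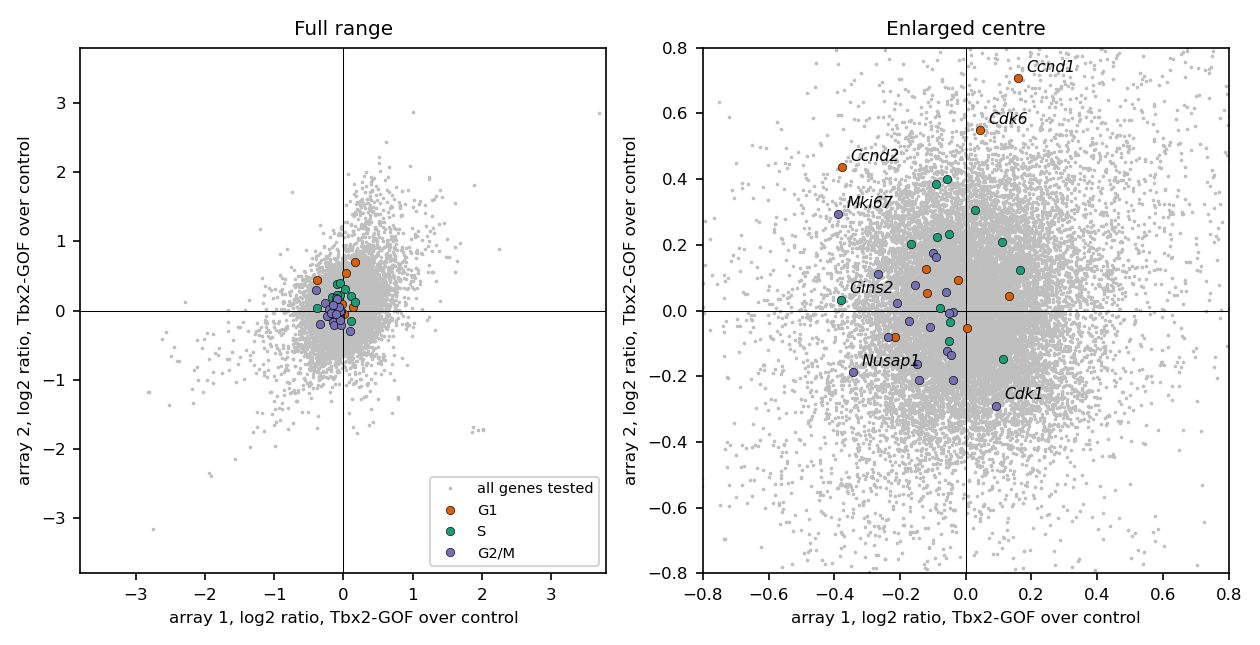
Log2 ratio of Tbx2-GOF over control on array 1 (x axis) and array 2 (y axis) for all 21098 genes tested (grey) and the members by phase (colours), at full range on the left and enlarged on the right. The members lie in the centre of the cloud; Ccnd1 is highest on array 2, and Mki67 and Ccnd2 lie in the upper left, with opposite signs on the arrays.

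Cell cycle genes outside the members did not pass the test either. Of 60 other genes of DNA replication and its checkpoints, all measured, 0 passed, and the median was -0.02. The values ran from -0.22 for the chromatin remodelling gene Hells to 0.39 for Wdr76. In this list 21 were lower on both arrays (25.1% of all genes were) and 7 higher on both (26.1% of all genes). Its medians were -0.07 on array 1 and -0.0062 on array 2, where the S phase members had 0.20. Of 60 other genes of mitosis 0 passed as well, with a median of -0.09, the same as that of the G2/M members. There 29 were lower on both arrays (25.1% of all genes were), 3 were higher on both, and the spindle checkpoint kinase gene Ttk was farthest down at -0.52 and -0.31 (adjusted p = 0.306 by limma, n = 2), with Troap highest at 0.20. The list of 29 regulators of G1 and of checkpoints had 27 measured genes, 0 past the test and a median of 0.01. Chek1 was left out because its spot on array 2 was an outlier, and Cdkn2a because it was not well above background in either group.

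Among these regulators were the MYC genes, growth-promoting transcription factors that act upstream of the D-type cyclins. Mycn had levels of 14.02 and 13.81 in Tbx2-GOF ureters, against 13.67 and 13.34 in control ureters, and was the highest of the list at 0.41 ± 0.09 (n = 2). Myc had 13.34 and 13.21 in Tbx2-GOF and 13.03 and 12.71 in control ureters, a ratio of 0.41 ± 0.14. Both were higher in Tbx2-GOF on both arrays, with no overlap of the groups, and neither passed the test (adjusted p = 0.297 and 0.315 by limma); Mycn is named as the top of the list, and Myc was chosen after its value was seen. The lowest value of the list, -0.20 and -1.18, came from the CDK inhibitor gene Cdkn2b, a dim probe with levels of 6.62 and 6.72 in Tbx2-GOF and 6.81 and 7.90 in control ureters. It was not well above background in Tbx2-GOF ureters on array 1, so 1 of the 2 arrays measured both groups, and it did not pass the test. The other measured CDK inhibitor genes, Cdkn1a, Cdkn1b, Cdkn1c, Cdkn2c and Cdkn2d, had ratios between -0.21 and 0.18, and Cdkn1a, a reported target of repression by TBX2, was at 0.01 and 0.36.

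**Figure D5:**
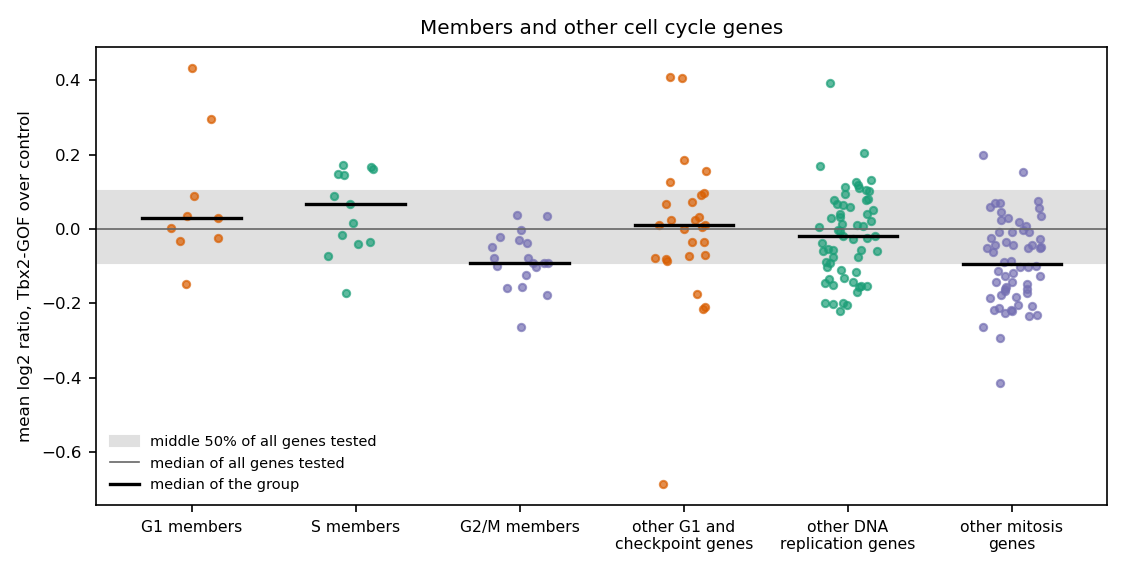
Mean log2 ratio of Tbx2-GOF over control (y axis) for each measured gene of the 3 phase groups and of the 3 lists of other cell cycle genes (points); bars are group medians, and the grey band holds the middle 50% of all genes tested. The medians of the G2/M members and of the other mitosis genes are both -0.09, and those of the other groups lie between -0.02 and 0.07.

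Marker genes show what tissue the extracts held. All 7 markers of ureteric mesenchyme and all 12 of urothelium were measured above background. The mesenchymal list had 0 genes past the test, 0 higher and 3 lower on both arrays. Among the 3 was Tbx18. Cre lies at 1 Tbx18 allele in Tbx2-GOF embryos alone, so allele and tissue content cannot be told apart for this marker. Summed linear levels of the mesenchymal list were 153150 and 146154 in Tbx2-GOF, against 175638 and 132259 in control ureters. Such sums follow the brightest probes of a list, here Bmp4 with log2 levels of 16.57 and 16.47 in Tbx2-GOF ureters. Of the urothelial markers 6 were higher on both arrays and 3 lower on both, with a median of 0.14. Upk3a alone passed the test, as lower. Urothelial sums were 27188 and 28374 in Tbx2-GOF, against 22081 and 26102 in control ureters. Tbx18 was at -0.31 and -0.59 (adjusted p = 0.266 by limma, n = 2), and Tbx2 was at 0.04 and 0.56 (adjusted p = 0.711); the sources used here do not state whether its probe lies in the introduced Tbx2. Markers of other tissues had ratios farther from 0 than the cell cycle genes. For comparison, 26.1% of all genes were higher on both arrays and 25.1% lower on both. The test called 0.36% of all genes as higher and 0.284% as lower. All 12 neural and Schwann cell markers were higher on both arrays, 2 past the test, with summed linear levels of 103315 and 107479 in Tbx2-GOF and 64726 and 39402 in control ureters. Of 9 measured skeletal muscle markers all were lower on both arrays, 4 past the test, with sums of 20723 and 42718 in Tbx2-GOF and 56363 and 62480 in control ureters; Myf5 was not well above background. Of 10 nephron and collecting duct markers 6 were higher on both arrays, 2 were lower on both and 2 had opposite signs. Those lower on both were Sall1 at -0.46 and Wnt11 at -0.21. In this list 2 were past the test upward, with sums of 52096 and 48750 in Tbx2-GOF, against 41388 and 38263 in control ureters. Erythroid markers, 12 in all, had a median of -0.37 (array 1 -0.15, array 2 -0.38) and 0 past the test. Their sums were 735046 and 648981 in Tbx2-GOF, against 709242 and 877257 in control ureters. On array 1 the sum was thus higher in Tbx2-GOF while the median ratio was below 0. Of 7 endothelial markers 6 were higher on both arrays and 0 past the test, with a median of 0.29 and sums of 53189 and 54318 in Tbx2-GOF, against 40684 and 46372 in control ureters. The part of these cells in the cell cycle values was not tested.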

How the data were processed

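RNA of 1 Tbx2-GOF and 1 control extract per array was labelled with AlexaFluor555 or AlexaFluor647; Tbx2-GOF carried AlexaFluor647 (red) on array 1 and AlexaFluor555 on array 2, per the labels. The submitters' processing notes name Agilent Feature Extraction 10.7.3.1. The deposited mean signals and median backgrounds are intensity values as scanned; processed signals are intensity values background-subtracted and dye-normalized by the software, per the file headers. The deposited log10 ratios, red over green per the file headers, were not used further. The deposited series value table holds signed linear fold values, treated as a score because scale, centring and direction are unstated; positive was taken as Tbx2-GOF over control, because the members' values then match those of processed signals oriented by dye.

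Each array held 43020 spots for 39429 probes, with median green intensities of 348 and 382 (backgrounds 28 and 28) and median red intensities of 452 and 449 (backgrounds 94 and 87.5); 209 and 391 spots were outliers and no spot was saturated. The number of arrays limits the precision. With limma 3.58.1 in R 4.3.3, intensities were background-corrected (normexp, offset 50), loess-normalized within arrays (span 0.3), turned by dye and averaged over spots. Probes kept numbered 26576. For each gene the brightest kept probe was tested with lmFit and eBayes (1 residual and 6.36 prior degrees of freedom). Single-channel levels were Aquantile-normalized and are open to dye bias. Symbols were updated through RefSeq accessions (GRCm38.p6), which matched 67% of probes; probe coordinates are on mm9. The fitting script was tested on simulated data. Members, lists and tests were chosen with earlier results of these data known. Genes given in full are, per phase, the 3 farthest from 0 with 1 sign on both arrays, Ccnd1, Ccne1, Pcna, Mcm2, Mki67, Top2a and Cdk1, and genes whose probes differ in sign; of other lists, the highest and lowest gene.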

Additional observations from a re-analysis of the deposited data

How the results depend on the processing

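No member and none of the other cell cycle genes passed the test, and no member was 1.5-fold apart on both arrays, under any of the alternatives run with both arrays. Over all genes the calls numbered 136 as reported, against 0 with median centring, 0 with the series value table, 0 with processed signals, 313 with scaling between arrays, 276 without the filter on dim probes and 211 with the mean of a gene's probes; the cause was not tested. Members with an unadjusted p under 0.05 numbered 1 as reported and 0 with processed signals and the series value table. Of 451 member values, 9 had the opposite sign, all of genes at most 0.0725 from 0 as reported: median centring gave Ccnd3 -0.0471, Cdk4 -0.0251 and Mcm4 -0.0146; scaling gave Ccnd2 -0.0031 and Ccnd3 -0.0082; the mean of probes gave Cdc6 0.0467 and Cdca8 0.0308; and processed signals and the series value table gave Cdca8 0.0059 each. The 451 are not separate checks, since other dim filters, a test of each probe and another limma variance model left member ratios as reported. The series value table repeated the values of processed signals, to which its direction was matched. Tpx2 was at -0.16 with the mean of probes, against -0.08 as reported. Ccnd1 ranged from 0.41 to 0.43 and Nusap1 from -0.30 to -0.26. With 1 array left out, the medians ranged from -0.08 to 0.04 for all members, -0.02 to 0.09 for G1, -0.05 to 0.20 for S and -0.11 to -0.0322 for G2/M. Phase medians also moved with the normalization. The G1 median was 0.0294 as reported, -0.0251 with median centring and -0.0031 with scaling. For S it was 0.0672 as reported and 0.0208 with median centring, and for G2/M -0.0904 and -0.0950. The reported test is paired by construction, since each array gives 1 ratio of both groups, and no further replicate block could be fitted.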
